A study of Rattus norvegicus with 113 samples.

Results

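Synaptic vesicle and postsynaptic density genes, 10 of the 16691 genes that the arrays could be matched to, were followed in the brain of rats after traumatic brain injury (TBI). They were chosen by symbol. Of the synaptic vesicle and its fusion machinery these were Syn1, Syp, Snap25, Syt1 and Vamp2, of the postsynaptic density Dlg4, Camk2a, Homer1 and Shank2, and in addition C1ql3, a secreted protein of the synaptic cleft. A probe was assigned to a gene when the RefSeq transcript deposited with the array belongs to that rat symbol, which gave 15 of the 45598 probes of the larger array design and 11 of the 30367 probes of the smaller one. Syp had no matched probe on the smaller design.

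Neurons release transmitter when synaptic vesicles fuse with the presynaptic membrane. Syn1 (synapsin 1) tethers vesicles to each other and to actin, Syp (synaptophysin) is an abundant protein of the vesicle membrane, Vamp2 and Snap25 form the core of the SNARE complex that drives fusion, and Syt1 (synaptotagmin 1) is the calcium sensor that triggers it. Across the cleft, Dlg4 encodes the scaffold PSD-95, Camk2a the kinase subunit that acts in synaptic plasticity, and Homer1 and Shank2 adaptor and scaffold proteins that link glutamate receptors to the cytoskeleton, while C1ql3 belongs to the C1q-like proteins that bind adhesion receptors at excitatory synapses.

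Adult male Sprague-Dawley rats were killed 24 hr, 2 weeks, 3 months, 6 months or 1 year after lateral fluid percussion (TBI) or after sham injury, which was the same anesthesia and surgery without the pressure pulse. The labels call the injury moderate and the study's methods call it severe. Naive rats were neither anesthetized nor handled, so that a difference between sham and naive rats covers surgery, anesthesia and handling together. The hippocampus of the injured side and the cortex near the injury were measured, 1 array per tissue sample, with 4 naive, 4 sham and 4 TBI rats per tissue and interval, except for 2 sham and 3 TBI rats and no naive rat for the hippocampus at 24 hr. The 17 hippocampal arrays of 24 hr and 3 months carry the smaller design, on which Syn1, Syt1, Vamp2, Homer1 and Shank2 are read by another probe than on the other 96 arrays, so their levels are not set against each other across designs.

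The share of probes well above background ran from 41.2% to 93.0% over arrays (median 56.0%), and no probe was saturated. Cortex sham replicate 3 at 2 weeks, with 93.0%, stood apart from the other arrays, and the comparisons of cortex at 2 weeks are given with and without it. A slide held both TBI and sham samples in 5 of 10 cases, cortex 3 months and 1 year and hippocampus 2 weeks, 3 months and 1 year. Elsewhere slide and injury cannot be told apart, and at 24 hr the hippocampal sham arrays were also scanned on another day. TBI and naive arrays never shared a slide, so slide and injury cannot be told apart in any comparison between them. The tissue labels were checked in naive rats against genes of each region. Of the 5 cortical genes tested 4 were lower in the hippocampus, and of 4 hippocampal genes 2 were higher and none was lower. A level below is the log2 of the background-subtracted intensity over the 75th percentile of the same array, so that 0 stands for that percentile, and a difference is a difference of such levels. A gene is called changed at an adjusted p under 0.05 in limma, adjusted over all probes tested in that comparison. In whole tissue, fewer cells of a type and less RNA per cell cannot be told apart.

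For 8 of the 10 genes, all but Snap25 and Shank2, the RefSeq table of gene starts (build GRCr8) gave the 250 bases before the start, and these were searched on both strands for short motifs. The window of Syt1 lies almost wholly inside the annotated gene and its matches are not given. C1ql3 (chromosome 17, 81028418 to 81038244) and Syn1 (chromosome X, 3725745 to 3780940) are printed, C1ql3 because it differed most between TBI and sham rats in the hippocampus at 24 hr and Syn1 because it differed from naive rats in the cortex at 24 hr and in the hippocampus at 6 months. The C1ql3 sequence is chr17:81038245-81038494 on the minus strand, with an E-box (CAGCTG) and a TATA box (TATAAA) in capitals, and the Syn1 sequence is chrX:3725495-3725744 on the plus strand, with a cAMP response element (TGACGTCA) in capitals.
C1ql3: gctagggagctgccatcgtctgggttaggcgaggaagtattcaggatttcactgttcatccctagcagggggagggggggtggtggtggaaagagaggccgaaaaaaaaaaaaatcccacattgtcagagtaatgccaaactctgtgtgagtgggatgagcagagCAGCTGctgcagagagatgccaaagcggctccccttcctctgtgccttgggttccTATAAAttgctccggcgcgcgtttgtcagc
Syn1: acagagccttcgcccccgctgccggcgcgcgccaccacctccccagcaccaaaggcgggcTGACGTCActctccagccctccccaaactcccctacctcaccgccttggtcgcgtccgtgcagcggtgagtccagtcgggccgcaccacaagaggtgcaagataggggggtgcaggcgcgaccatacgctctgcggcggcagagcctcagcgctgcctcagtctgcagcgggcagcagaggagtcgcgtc
The TATA box of C1ql3 lies 30 to 25 bases before the start and TATAAA is found in 12.9% of all 33469 windows of that length, that of Homer1 among them. The response element of Syn1 lies 190 to 183 bases before the start and its letters are found in 1.59% of all windows. No other member window holds TGACGTCA. GC boxes (GGGCGG, 30.5% of all windows) were found before Vamp2 and Syp, and CAGCTG (12% of all windows) before C1ql3 and Syp. GCGTGGGCG (0.478% of all windows) was found before Vamp2, and TTCAGCACC (0.305%) and GGACAG (18.2%) were found in none of the windows. These are matches of letters, and binding was not measured.

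In naive rats most of these genes read lower in the hippocampus than in the cortex, and C1ql3 read higher. By the animal numbers deposited with the arrays both tissues came from the same 12 rats, of 2 weeks, 6 months and 1 year. At 2 weeks and 6 months the naive arrays of hippocampus and cortex lay on different slides. Tissue and slide cannot be told apart there. Of the 10 genes 7 were lower and 1 was higher in the hippocampus. In that comparison 26.1% of all probes were lower and 29.6% higher (55.7% called). These counts, and the SEs and p-values below, come from a model without the rat unless stated. With the rat as a block 7 members were called. Over the 12 rats the difference had an SD of 0.35 for Snap25 and 0.70 for Syp. The directions were the same under each scaling tried, but with the array median in place of the 75th percentile, which shifted the median of all probes by 0.15, Snap25, Syn1, Syp and C1ql3 alone were called, and the share of calls that were higher in the hippocampus was 66.1% in place of 53.1%. The plot of naive rats by tissue shows every rat.

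**Figure D1:**
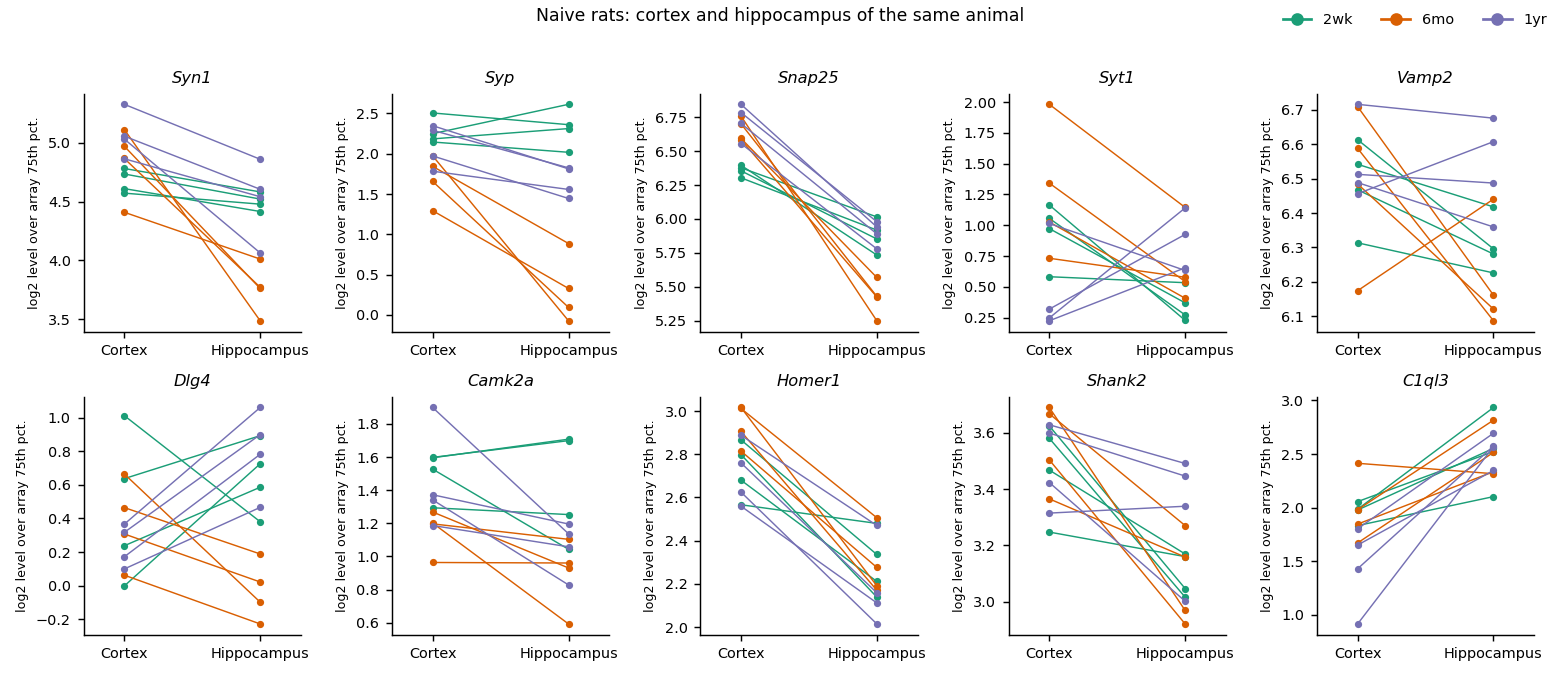
Log2 level (over the 75th percentile of the array) of each gene in cortex and hippocampus of 12 naive rats. Points are single arrays, a line joins the tissues of 1 rat, and colors mark the interval; all 12 lines of Snap25, Syn1 and Homer1 go down toward the hippocampus and 11 of 12 of C1ql3 go up.

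Snap25 levels ran from 6.30 through a median of 6.59 to 6.84 in the cortex and from 5.25 through 5.82 to 6.02 in the hippocampus. The tissues did not overlap and the gene was lower in the hippocampus of 12 of 12 rats (difference -0.85 ± 0.05, SE without the rat in the model, adjusted p = 6.96e-12). Syn1 levels lay between 4.41 and 5.33 in the cortex (median 4.86) and between 3.49 and 4.86 in the hippocampus (median 4.45). Although the ranges overlap, it was lower in the hippocampus of all 12 rats (difference -0.60 ± 0.09, adjusted p = 9.24e-06). Homer1, between 2.56 and 3.02 in the cortex (median 2.81) and between 2.01 and 2.51 in the hippocampus (median 2.20), was also lower in all 12 (difference -0.54 ± 0.06, adjusted p = 4.22e-07). Shank2 (difference -0.34 ± 0.07, 11 of 12 rats) and Camk2a (-0.24 ± 0.09, 10 of 12 rats) were lower with adjusted p-values of 0.000187 and 0.0290. Syp was lower over all intervals together (difference -0.59 ± 0.11, 10 of 12 rats, adjusted p = 0.000113), but its mean difference was 0.05 ± 0.24 (SD, n = 4) at 2 weeks and -1.38 ± 0.53 at 6 months, where the naive hippocampal arrays read low. Vamp2, with a difference of -0.16 ± 0.06 and lower in the hippocampus of 10 of 12 rats, passed the test without the rat in the model (adjusted p = 0.0373) and missed it with the rat as a block (adjusted p = 0.0673).

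C1ql3 went the other way. Its levels lay between 0.92 and 2.41 in the cortex (median 1.84) and between 2.10 and 2.93 in the hippocampus (median 2.54), a difference of 0.73 ± 0.11 (adjusted p = 9.56e-06) that 11 of 12 rats showed. Syt1 (-0.27, 95% interval -0.54 to 0.00, lower in 9 of 12 rats) and Dlg4 (0.11, interval -0.11 to 0.33, lower in 5 of 12) did not pass the test over all intervals together. These pooled values join unlike intervals. The mean difference of Dlg4 was 0.56 ± 0.14 (SD, n = 4) at 1 year and -0.40 ± 0.24 at 6 months, and that of Syt1 was 0.39 ± 0.55 at 1 year, -0.59 ± 0.39 at 2 weeks and -0.60 ± 0.31 at 6 months. Syn1 had mean differences of -0.17 ± 0.05 at 2 weeks, -0.55 ± 0.28 at 1 year and -1.08 ± 0.51 at 6 months. Those of Snap25 were -0.48 ± 0.14 at 2 weeks, -0.82 ± 0.06 at 1 year and -1.24 ± 0.20 at 6 months, where its naive hippocampal arrays also read low. Whether the intervals differed was not tested.

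Across the 15 groups of the cortex and the 9 hippocampal groups of the larger design the order of neighbouring group means was mostly not resolved. Only neighbours were compared, which says nothing on means farther apart. Those of Homer1 in the cortex ran from 2.32 to 3.14, with a median SD of 0.13. C1ql3 means ran from 1.45 (naive, 1 year) to 2.08 (TBI, 3 months) in the cortex and from 2.34 (TBI, 6 months) to 2.62 (TBI, 2 weeks) in the hippocampus, and none of its 14 and 8 pairs of neighbours in that order were farther apart than the larger of their SDs. The same held for Syt1, Camk2a, Homer1 and Shank2 in both tissues. Of the 8 neighbouring pairs in the hippocampus 2 were farther apart than the larger SD for Snap25 and 1 each for Syn1, Syp and Dlg4, and the lowest mean of all 4 genes was that of the naive rats of 6 months.

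At 24 hr in the hippocampus C1ql3 was lower in TBI than in sham rats. With all arrays no other member passed the test in any comparison of TBI with sham but Syt1, on a probe that was not above background in every TBI array. The question of this comparison is what injury adds to surgery in the first day. These sham and TBI arrays differed in slide and scan day, which cannot be told apart from injury. C1ql3 read 2.57 and 3.40 in the sham rats and 1.51, 1.63 and 1.81 in the TBI rats. Every TBI array lay below both sham arrays, and the difference was -1.34 ± 0.27 (SE, n = 2 and 3, 95% interval -2.01 to -0.67, adjusted p = 0.0316 in limma), or 2.53-fold lower. Syt1, on the dim probe of the smaller design, read -3.10 and -3.21 in the sham rats and -4.03, -3.72 and -3.82 in the TBI rats. These groups did not overlap either, and the fitted difference was -0.70 ± 0.14 (adjusted p = 0.0301). The probe was well above background in both sham arrays and in 2 of the 3 TBI arrays, so that it entered the test through the sham rats alone, where it read high, and its call is not counted here. Of the 7 members above background in every array 1, C1ql3, was called, in a comparison in which 16.4% of all probes were called and 9.35% were lower.

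**Figure D2:**
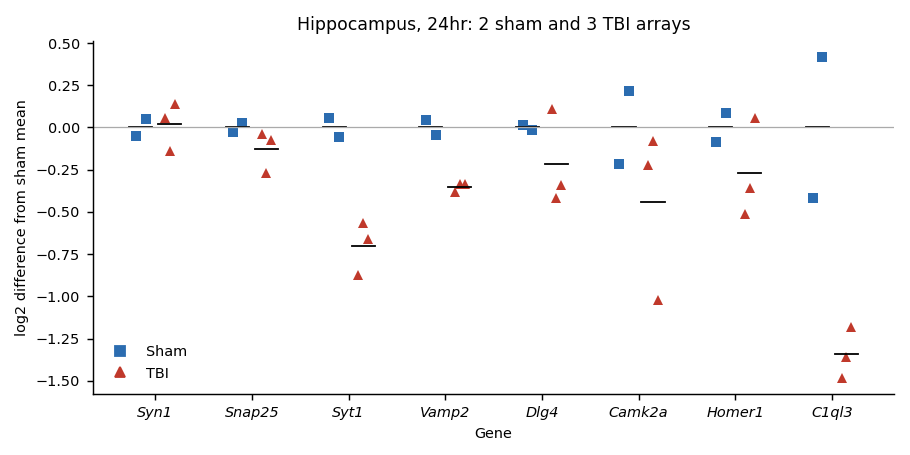
Hippocampus at 24 hr: log2 difference of each array from the sham mean of the gene (y axis) for the 8 genes tested (x axis), 2 sham and 3 TBI arrays, with bars at the group means. TBI arrays lie below both sham arrays for Syt1, Vamp2, Snap25 and C1ql3, and the arrays of Syn1 lie on both sides of 0.

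Vamp2 levels were 3.86 and 3.77 in sham and 3.43, 3.48 and 3.48 in TBI rats, again without overlap, and the difference of -0.35 (interval -0.61 to -0.09) had an adjusted p of 0.0761. For Snap25, with 4.29 and 4.34 against 4.28, 4.04 and 4.24, the difference was -0.13 (interval -0.44 to 0.18). Of the 7 members above background in every array 3 had all TBI arrays below both sham arrays, as had 29.6% of all probes tested. Among the postsynaptic genes Camk2a differed by -0.44 (interval -1.25 to 0.37), Homer1 by -0.27 and Dlg4 by -0.22, none past the test, and Syn1 read 0.02 (interval -0.31 to 0.35). Of those 7 members 6 differed below 0, with a median of -0.27, and the median of all probes was -0.04. Shank2 was at or near background on these arrays and was not tested.

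In the same arrays 6 of 16 microglia and macrophage genes were higher and none was lower in TBI rats (sum of their linear levels 56.4 to 64.5 in sham, 86.4 to 117 in TBI), and 2 of 13 neuronal genes outside the synapse, Nefm and Mapt, were lower (204 to 214 in sham, 171 to 190 in TBI). All of these marker genes were above background in every array. Of 8 immediate early genes tested Fos was higher and Egr1, Arc and Nr4a1 were lower. The part of these changes in the synaptic values was not tested. C1ql3 lost its call with most arrays left out. It ranged from -1.76 to -0.92 with adjusted p-values from 0.0487 to 0.0968 and kept its call only without sham replicate 1, and Syt1 was not called with any array left out (adjusted p-values from 0.0583 to 0.125). With a sham rat left out 1 sham array remains, and the spread then comes from the 3 TBI arrays alone.

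In the cortex at 24 hr no member was called between TBI and sham rats in limma (0.00387% of all probes were) and none had an unadjusted p under 0.05. All 10 differences were below 0, with a median of -0.17 against -0.02 for all probes, but scaled on the array median, which moved the median of all probes up by 0.14, the members lay 5 below and 5 above 0. Camk2a read 0.52, 1.41, 1.24 and 0.26 in TBI and 1.66, 1.07, 1.28 and 1.25 in sham rats, a difference of -0.46 (interval -1.01 to 0.09), and 2 TBI rats read below every sham rat. Homer1 (-0.42, interval -0.85 to 0.01) and Syp (-0.42, interval -1.09 to 0.26) had the next largest differences.

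Set against naive rats, whose arrays lay on another slide, Syn1 was lower in the injured cortex at 24 hr. It read 4.85, 4.98, 4.98 and 4.98 in naive, 4.48, 4.54, 4.59 and 4.49 in sham and 4.07, 4.41, 4.94 and 4.39 in TBI rats. Sham rats lay below all naive rats, and so did 3 of the 4 TBI rats. The difference between TBI and naive rats was -0.49 ± 0.15 (interval -0.82 to -0.16, adjusted p = 0.0483), and it was the only member called where 16.1% of all probes were called and 9.1% were lower. Sham and naive rats differed by -0.42 in the same gene (adjusted p = 0.128), and no member was called between them (1.76% of all probes). These comparisons share the naive arrays, and their values are not independent of each other. Dlg4 read 1.20, 0.89, 0.86 and 0.88 in naive and 0.38, 0.35, 0.63 and 0.50 in sham rats without overlap, as Syn1 did and 12.5% of all probes (-0.49, adjusted p = 0.116), and Shank2 (-0.47, adjusted p = 0.170) overlapped. Between TBI and naive rats 9 of 10 members differed below 0 (median -0.41), 6 of them with an unadjusted p under 0.05, among them Shank2 (-0.60, adjusted p = 0.0576), Syt1 (-0.65, adjusted p = 0.0883) and Camk2a (-0.61, adjusted p = 0.111). Under each scaling tried 9 of 10 were below 0. The Syn1 call was lost after quantile normalization, without the filter on dim probes and with these 2 groups alone in the model. TBI replicate 3 moved the number that passed. Without it Syn1 (-0.65), Shank2 (-0.80), Vamp2 (-0.39) and Dlg4 (-0.55) were called, while Syn1 lost its call without any one of the other 3 TBI rats or of naive replicates 2, 3 and 4.

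Of the neuronal genes outside the synapse 5 of 14 were lower in TBI than in naive cortex at 24 hr (sums 238 to 310 in TBI, 274 to 318 in sham and 337 to 374 in naive rats), and 8 of 16 microglia and macrophage genes were higher and 1, P2ry12, lower (sums 96.4 to 144 in TBI, 49.2 to 105 in sham and 55.9 to 67.7 in naive rats). All of these marker genes were above background in every array. Their part in the synaptic values was not tested.

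**Figure D3:**
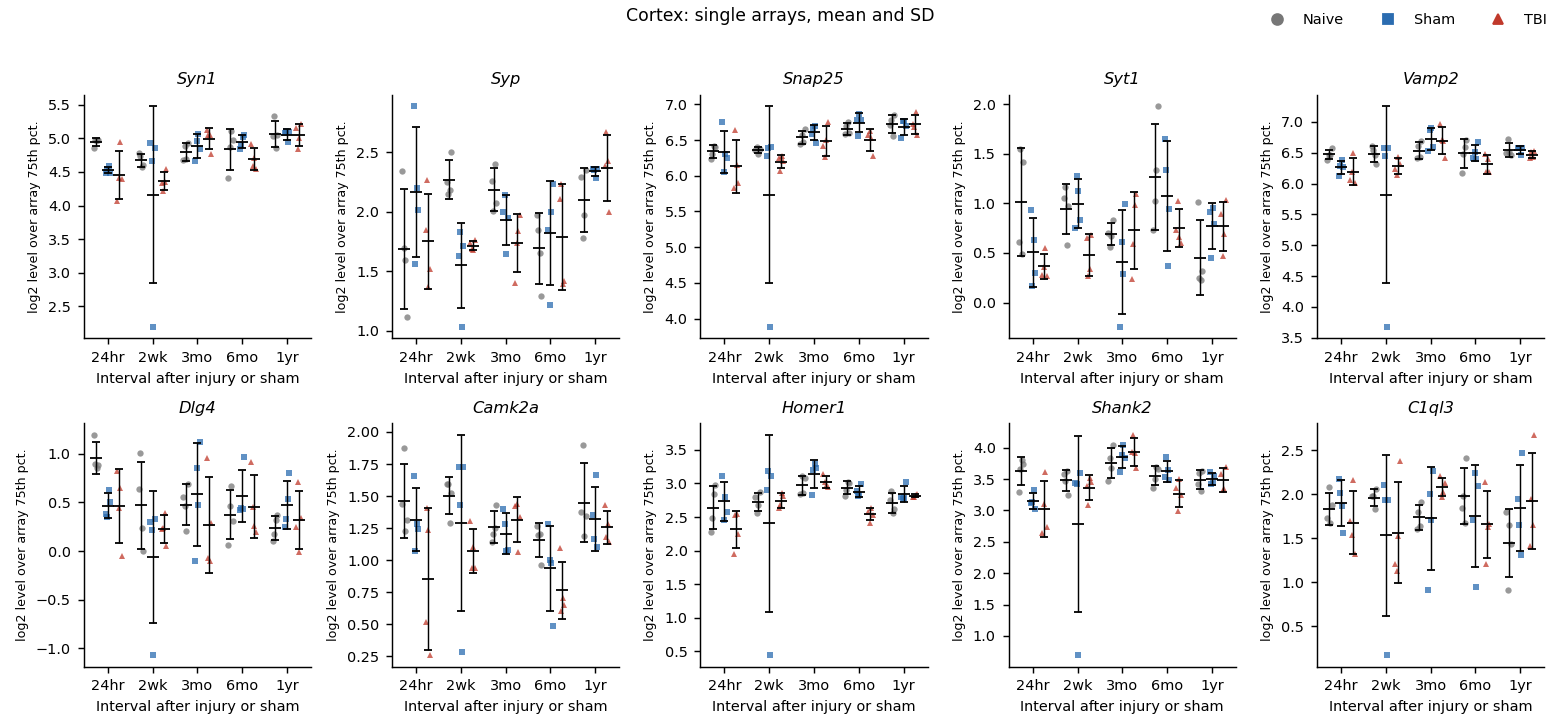
Cortex: log2 level (over the 75th percentile of the array) of each gene by interval for naive, sham and TBI rats. Points are single arrays and bars the mean and SD of 4 rats; sham replicate 3 at 2 weeks lies far below the other arrays for Syn1, Snap25, Vamp2, Homer1, Shank2, Dlg4 and C1ql3.

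At 2 weeks the cortex depended on 1 array. Sham replicate 3 read 2.19 for Syn1 where the other sham rats read 4.94, 4.66 and 4.86, and 3.88 for Snap25 where they read 6.28, 6.39 and 6.40. With it, no member was called between TBI and sham rats in limma (0.662% of all probes), 1 had an unadjusted p under 0.05, and 2 of 10 differences were below 0 (median 0.24, all probes 0.19). The direction followed the scaling, with 0 of 10 below 0 on the array median, 7 after quantile normalization and 10 in the deposited values, while the median of all probes moved between -0.39 and 0.95. The member with the unadjusted p under 0.05 was Syt1, with 0.65, 0.27, 0.33 and 0.68 in TBI and 0.75, 1.28, 1.13 and 0.83 in sham rats, which did not overlap (4.01% of all probes were lower without overlap; -0.52, interval -0.97 to -0.06, adjusted p = 0.497). On the array median the same difference was 0.24.

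Without that array all 10 differences were below 0 (median -0.29, all probes -0.03), and Camk2a and Syn1 were lower in TBI rats, where 7.98% of all probes were called and 3.44% were lower. Camk2a read 1.31, 0.94, 1.10 and 0.94 in TBI rats and 1.72, 1.43 and 1.73 in the remaining sham rats. The groups did not overlap, and the difference was -0.56 ± 0.13 (n = 4 and 3, interval -0.83 to -0.28, adjusted p = 0.0270). Syn1, with 4.34, 4.21, 4.35 and 4.54 against 4.94, 4.66 and 4.86, did not overlap either and differed by -0.46 ± 0.10 (adjusted p = 0.0280). Homer1 (-0.32, adjusted p = 0.0883), Syt1 (-0.47, adjusted p = 0.126) and Vamp2 (-0.26, adjusted p = 0.137) missed the threshold, and Syp differed by -0.01 (interval -0.23 to 0.21). With that array left out 9 or 10 of 10 differences were below 0 under each scaling tried. Both calls were kept after quantile normalization and in the deposited values, Camk2a alone was called after normexp background correction, and neither was on the array median. These values without the array were chosen after it was seen.

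Between sham and naive cortex at 2 weeks limma called no probe with all arrays (0%) and 0.00442% of the probes without that array, none of them a member, although Syp read lower in sham than in naive rats (-0.55, adjusted p = 0.144; 1.63, 1.83 and 1.71 against 2.25, 2.15, 2.18 and 2.51). In TBI rats of this interval the microglia and macrophage sum was 135 to 233, against 19.7 to 65.1 in sham and 38.8 to 71.6 in naive rats, and 10 of the 16 genes were higher than in sham rats with all arrays and 14 without sham replicate 3. Between 14 and 16 of these genes were above background in each array of the interval. The neuronal sum outside the synapse was 232 to 295 in TBI and 325 to 344 in naive rats, and its median in sham rats was 335. Their part in the Camk2a and Syn1 values was not tested.

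The hippocampus at 2 weeks showed small differences. No member was called between TBI and sham rats in limma (1.83% of all probes), none had an unadjusted p under 0.05, and the differences ran from -0.26 (Syt1, interval -0.79 to 0.26) to 0.04 (Dlg4, interval -0.25 to 0.34). On the array median all 10 lay below 0, against 7 here. C1ql3, with 2.82, 2.70, 2.37 and 2.58 in TBI and 2.73, 2.68, 2.53 and 2.43 in sham rats, differed by 0.03 (interval -0.32 to 0.37). Vamp2 read 6.13, 6.16, 6.09 and 6.04 in TBI and 6.28, 6.14, 6.27 and 6.23 in sham rats, and its interval, the narrowest of the 10, ran from -0.26 to 0.01. Against naive rats (6.30, 6.42, 6.28 and 6.23) the TBI rats lay lower without overlap, as 9.22% of all probes did, and Vamp2 missed the threshold (-0.20, interval -0.33 to -0.07, adjusted p = 0.0618; 9.46% of all probes were called and no member). It was called on the array median and in the deposited values.

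At 3 months no member was called between TBI and sham rats in either tissue in limma, and none had an unadjusted p under 0.05. In the cortex, where 0% of all probes were called, the differences ran from -0.32 (Dlg4) to 0.36 (C1ql3), 5 of 10 below 0. In the hippocampus, where 0.0067% were, they ran from -0.33 to 0.25 over the 8 members tested, 4 of them below 0. Syt1 entered this test through the sham rats alone, where its probe was above background throughout. Of the 7 members above background in every array 3 lay below 0. The lowest was Syn1 (interval -1.89 to 1.23), where 1 sham rat read 3.60 and the other sham rats 0.54, -1.004 and 0.77, against 0.13, 0.78, 1.01 and 0.66 in TBI rats.

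**Figure D4:**
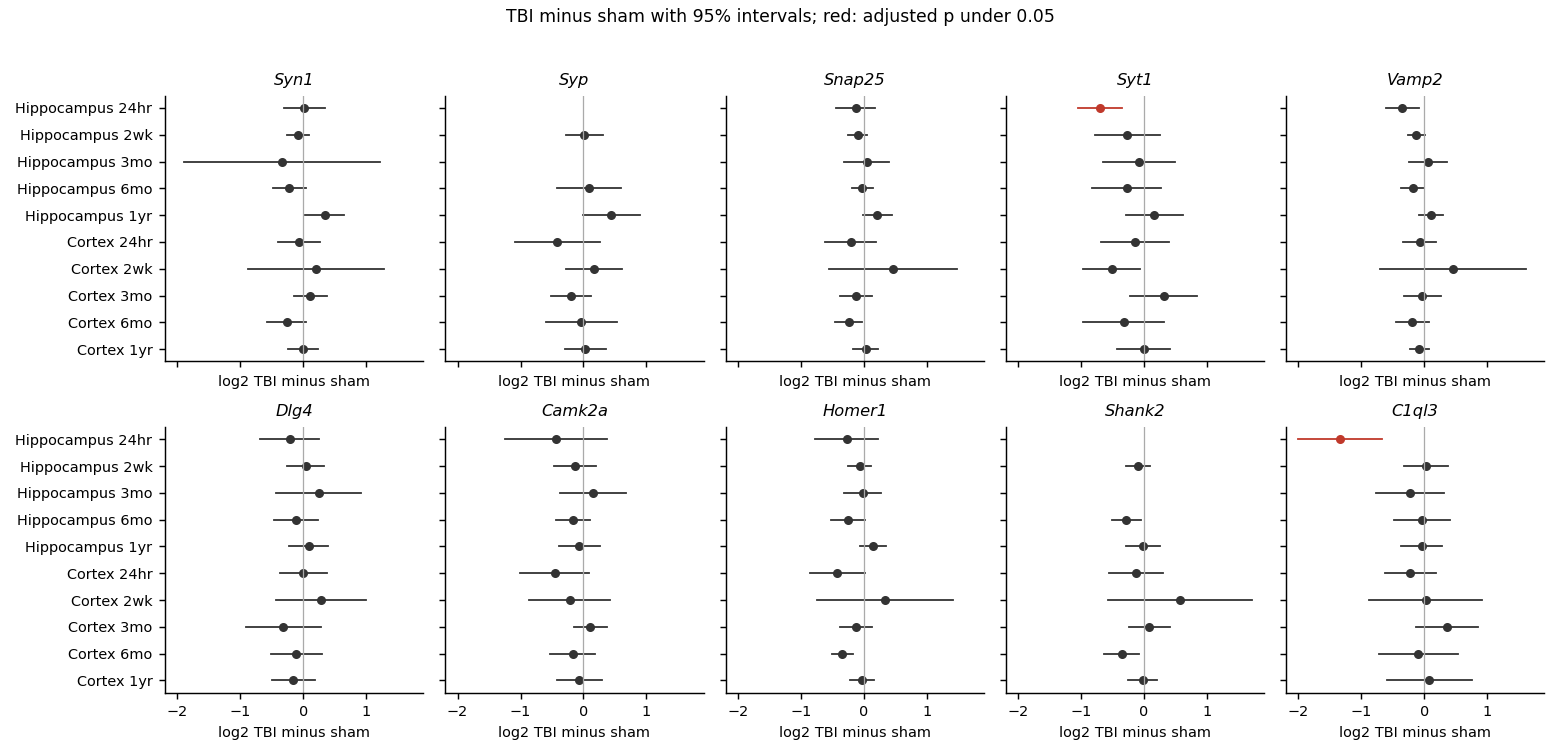
Log2 difference of TBI minus sham (x axis) with its 95% interval for each gene, tissue and interval, limma with all arrays; red marks an adjusted p under 0.05. Only C1ql3 and Syt1 in the hippocampus at 24 hr are red, Syt1 on a probe not above background in 1 TBI array. Comparisons in which a gene was not tested are left empty.

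At 6 months all 10 members had a difference below 0 in the cortex (median -0.21, all probes -0.01), or 8 to 10 of them under each scaling tried, and limma called none (0.0443% of all probes). Homer1 came nearest. It read 2.58, 2.42, 2.63 and 2.53 in TBI, 2.88, 2.82, 2.82 and 3.00 in sham and 2.81, 2.91, 3.02 and 3.01 in naive rats, so that every TBI rat lay below every control rat, as was so against sham rats for 4.54% of all probes. The difference from sham rats was -0.34 ± 0.08 (interval -0.51 to -0.17, adjusted p = 0.148) and that from naive rats, which shares the TBI arrays, -0.40 ± 0.08 (interval -0.57 to -0.23, adjusted p = 0.0636; 0.349% of all probes called and no member, 5.47% lower without overlap). Against naive rats it was called after quantile normalization and after normexp background correction. Shank2 (-0.35, interval -0.63 to -0.08) and Snap25 (-0.24, interval -0.45 to -0.03) also had an unadjusted p under 0.05, with adjusted p-values of 0.299 and 0.345.

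In the hippocampus at 6 months 9 of 10 members had a difference below 0 between TBI and sham rats (7 to 9 under each scaling tried), and limma called none of them (0.0179% of all probes). Shank2 read 3.04, 3.22, 3.10 and 3.20 in TBI and 3.66, 3.44, 3.25 and 3.31 in sham rats without overlap (-0.28, interval -0.51 to -0.04, adjusted p = 0.409), and it was the 1 member with an unadjusted p under 0.05. Vamp2 did not overlap either (6.35, 6.25, 6.17 and 6.24 against 6.48, 6.43, 6.38 and 6.44, difference -0.18, interval -0.36 to 0.00). A lack of overlap in that direction was seen for 4.62% of all probes.

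At 1 year the hippocampal differences lay mostly above 0. No member was called in limma (0% of all probes), and 3 of 10 were below 0. Syn1 read 4.67, 4.71, 4.47 and 4.77 in TBI and 4.39, 4.34, 4.18 and 4.35 in sham rats, with no overlap (0.34, interval 0.03 to 0.65, adjusted p = 0.291), but the naive rats of this interval ran from 4.06 to 4.86 and covered both groups. Homer1 did not overlap either, with 2.39, 2.37, 2.28 and 2.40 against 2.18, 2.18, 2.26 and 2.24 (0.15, interval -0.06 to 0.35), as 4.9% of all probes did not in that direction. Syp differed by 0.45 (interval -0.01 to 0.90, adjusted p = 0.319). In the cortex at 1 year limma called 0% of all probes, no member had an unadjusted p under 0.05, and the differences ran from -0.15 (Dlg4) to 0.08 (C1ql3, interval -0.59 to 0.76).

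By the rule named in the study's methods for TBI against sham, a fold of at least 1.4 with an unadjusted p under 0.05, the same C1ql3 and Syt1 were lower in the hippocampus at 24 hr, where 13.8% of all probes were lower and 24.4% passed in either direction, and Syt1 was lower in the cortex at 2 weeks with all arrays (3.27% lower, 8.63% in either direction). Without sham replicate 3 Camk2a was the 1 member lower there (3.38% lower, 9.79% in either direction). By its methods the study applied this rule to values scaled on the array median. Genes not above background in some replicate or too far apart between replicates had been left out before. Those filters were not applied here. The hippocampal Syt1 probe would not have passed the first of them. On the array median the cortical Syt1 difference at 2 weeks was above 0 (0.24). In the deposited values all 10 members lay below 0 in that comparison, Syt1 among them. The constant behind those values lies near the 75th percentile in all arrays but 1, cortex sham replicate 3 at 2 weeks.

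Whether the difference between TBI and sham rats itself differed between tissues or intervals was tested as an interaction, and no member passed. At 24 hr the hippocampal minus the cortical difference of C1ql3 was -1.12 ± 0.33 (interval -1.82 to -0.41, adjusted p = 0.103, 2.35% of the 13285 probes shared and tested were called). The share of probes called was 0% at 2 weeks, 3 months and 1 year and 0.004% at 6 months. It was 0.0231% for the cortical effect at 2 weeks against that at 24 hr and 0% for 6 months against 24 hr. Without cortex sham replicate 3 of 2 weeks it was 0.0157% between the tissues at 2 weeks and 0.25% between the cortical intervals, again with no member. At 2 weeks and 6 months the animal numbers pair both tissues in all rats. Fitted on the difference between tissues within each rat, 0% of all probes were called at 2 weeks, with or without that array, and 0% at 6 months, and the smallest adjusted p of a member at 2 weeks was 0.573 with and 0.439 without it. From 6 months to 1 year in the hippocampus the difference at 1 year was larger by 0.56 ± 0.19 for Syn1 (adjusted p = 0.118), by 0.40 ± 0.15 for Homer1 (adjusted p = 0.160) and by 0.28 ± 0.12 for Vamp2 (adjusted p = 0.188), where 0.993% of all probes were called. In that contrast 9 of 10 members lay above 0, and 3 had an unadjusted p under 0.05.

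**Figure D5:**
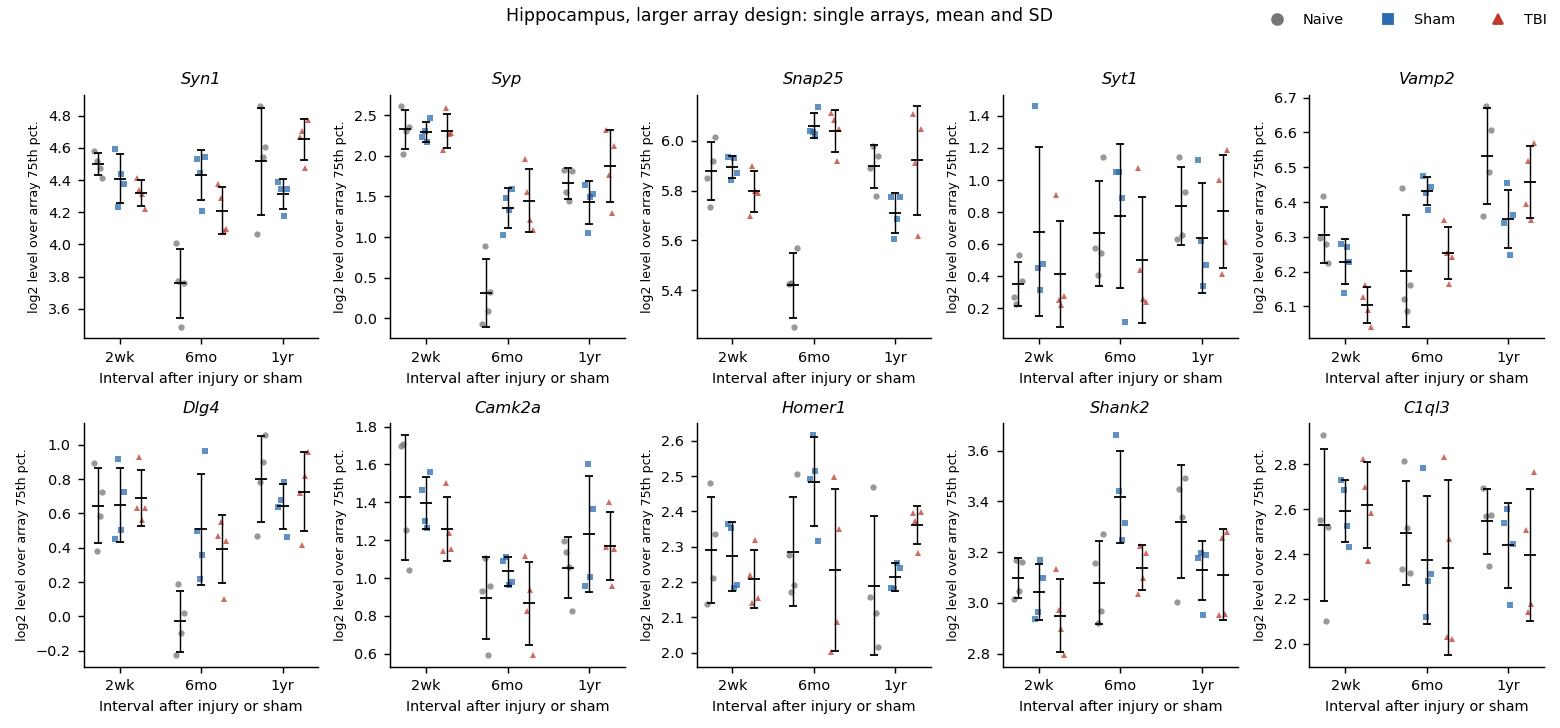
Hippocampus on the larger design: log2 level (over the 75th percentile of the array) of each gene by interval for naive, sham and TBI rats. Points are single arrays and bars the mean and SD of 4 rats; at 6 months the naive rats lie below the sham rats for Syn1, Syp, Snap25 and Dlg4, without overlap.

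More members were called between sham and naive rats in the hippocampus at 6 months than in any other comparison of treatments. The naive arrays of this group were uneven. Their share of probes well above background was 49.0%, 72.4%, 59.2% and 41.2%, the last the lowest of all arrays. That share ran from 46.6% to 56.8% in sham and from 49.5% to 57.3% in TBI rats. Its part in the values below was not tested. Of the 10 members 5 were higher in sham rats and none was lower, where 18.3% of all probes were called and 8.36% were higher. Snap25, Syn1 and Syp were called under each scaling tried, and Dlg4 and Shank2 under each but the array median, on which 94.6% of all calls were higher in place of 45.7%. Snap25 read 5.43, 5.43, 5.25 and 5.57 in naive, 6.04, 6.04, 6.03 and 6.14 in sham and 6.11, 6.08, 5.92 and 6.05 in TBI rats. Naive rats lay below every sham and TBI rat and below the means of all other hippocampal groups of that design, and the difference between sham and naive rats was 0.64 ± 0.08 (interval 0.47 to 0.81, adjusted p = 0.00131). Syp read -0.07, 0.89, 0.09 and 0.33 in naive, 1.03, 1.48, 1.33 and 1.59 in sham and 1.96, 1.55, 1.21 and 1.08 in TBI rats, which again did not overlap with naive rats (sham minus naive 1.05 ± 0.23, adjusted p = 0.0105). Syn1 read 4.01, 3.77, 3.49 and 3.76 in naive rats, below the sham rats with 4.53, 4.45, 4.21 and 4.55 (0.68 ± 0.12, adjusted p = 0.00395) and the TBI rats with 4.37, 4.29, 4.08 and 4.09.

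Of the postsynaptic genes Dlg4, with -0.23, 0.19, -0.10 and 0.02 in naive and 0.50, 0.22, 0.36 and 0.96 in sham rats, rose without overlap (0.54 ± 0.16, adjusted p = 0.0371). Shank2, with 3.16, 2.92, 2.97 and 3.27 against 3.66, 3.44, 3.25 and 3.31, rose with 1 naive rat inside the sham range (0.34 ± 0.11, adjusted p = 0.0472). Groups were without overlap in that direction for 4 members and for 9.04% of all probes. Vamp2 (0.23, adjusted p = 0.0744), Homer1 (0.20), Camk2a (0.14), Syt1 (0.11) and C1ql3 (-0.12) did not pass the test.

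Compared with the same naive arrays, TBI rats were higher for Syp (1.14 ± 0.23, adjusted p = 0.0111), Snap25 (0.62 ± 0.08, adjusted p = 0.00526) and Syn1 (0.45 ± 0.12, adjusted p = 0.0316), where 13.3% of all probes were called and 5.79% were higher. None of the 3 was called without the filter on dim probes. All 3 lay above the naive rats without overlap, as 7.58% of all probes did. Scaled on the array median Snap25 and Syp were called and Syn1 was not, and 98.0% of all calls were higher in place of 43.6%. After quantile normalization 61.0% were. Naive and sham arrays of this group shared a slide and the TBI arrays did not. Naive replicate 3 had a microglia and macrophage sum of 485, against 71.9 to 89.7 in the other naive, 54.5 to 67.2 in the sham and 62.9 to 75.7 in the TBI rats, and 1 of 14 tested genes of that list was lower in sham than in naive rats (median over the list -1.07). Of 14 neuronal genes outside the synapse 4 were higher in sham rats (Tubb3, Rbfox3, Nefh and Nefl) and none was lower, with sums of 257 to 337 in naive and 296 to 317 in sham rats, and 14 to 16 of the microglial and all 14 neuronal genes were above background in each array. Of 4 genes of cortical identity tested 2 were higher in sham rats and none differed below 0 (median 0.52), with sums over 6 such genes of 3.59 to 4.32 in naive, 4.91 to 6.01 in sham and 4.82 to 7.26 in TBI rats and 2 to 6 of them above background in each array. Immediate early genes had 2 of 9 higher and none lower, and astrocyte genes none higher and 3 of 9 lower. Without naive replicate 3 Snap25 (0.59, adjusted p = 0.00367), Syn1 (0.58, adjusted p = 0.00980) and Syp (0.98, adjusted p = 0.0289) were called between sham and naive rats and Dlg4 (0.51, adjusted p = 0.0760) and Shank2 (0.30, adjusted p = 0.105) were not, and between TBI and naive rats Syn1 lost its call (0.36, adjusted p = 0.0659). Shank2 or Dlg4 also lost the call without sham replicates 1, 2 or 4 or naive replicates 1, 2 or 4. The part of the markers in these values was not tested.

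In the other comparisons of sham with naive rats not yet given limma called no member. In the hippocampus 11.8% of all probes were called at 2 weeks, 0% at 3 months and 4.45% at 1 year, and in the cortex 2.14% at 3 months, 0.0131% at 6 months and 4.38% at 1 year, and in none of these comparisons did a member have an unadjusted p under 0.05. Between TBI and naive rats no member was called in the hippocampus at 3 months (0.0062% of all probes) and 1 year (2.76%) or in the cortex at 2 weeks (0.971%), 3 months (3.01%) and 1 year (6.69%). In the cortex at 2 weeks Syp and Syt1 had an unadjusted p under 0.05. The sham arrays enter the spread of that comparison, and without sham replicate 3 Syp (-0.56, adjusted p = 0.00596) and Camk2a (-0.43, adjusted p = 0.0389) were lower in TBI than in naive rats, where 12.5% of all probes were called and 6.02% were lower. Syp read 1.74, 1.68, 1.68 and 1.76 in TBI and 2.25, 2.15, 2.18 and 2.51 in naive rats, without overlap. At 3 months Syp did (-0.45, interval -0.77 to -0.13, adjusted p = 0.153).

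Other genes of the synapse were taken from 7 lists, of vesicle proteins, fusion and active zone, vesicle endocytosis, postsynaptic scaffolds and kinases, glutamate receptors, the inhibitory synapse, and C1q-like and adhesion proteins, 123 genes of which 122 were on the arrays. Between TBI and sham rats with all arrays they were called only in the hippocampus at 24 hr, where 2 of 109 tested were higher and 6 were lower, against 7.01% and 9.35% of all probes. Those with the 3 largest changes were Homer3, a relative of Homer1, with 1.09 ± 0.17 (adjusted p = 0.0184), Rab3b, a vesicle-bound small GTPase, with 0.90 ± 0.12 (adjusted p = 0.0139), and Nlgn2, the neuroligin of inhibitory synapses, with -0.71 ± 0.12 (adjusted p = 0.0200). The median over the 109 genes was -0.24 and 81 were below 0, against a median of -0.02 over all named genes. Elsewhere no gene of the lists was called between TBI and sham rats with all arrays, and differences below 0 numbered 95 of 119 for the hippocampus 2 weeks after injury, 48 of 109 after 3 months, 78 of 116 after 6 months and 36 of 119 after 1 year. For the cortex they numbered 92 of 118 after 24 hr, 73 of 115 after 3 months, 98 of 118 after 6 months and 60 of 118 after 1 year. The list median in the cortex was -0.18 after 24 hr (all named genes 0.001) and -0.17 after 6 months (all named genes -0.01). Scaling on the array median moved the median of all probes up by 0.14 after 24 hr and by 0.04 after 6 months. On it 5 of 10 members lay below 0 after 24 hr and 9 of 10 after 6 months. The list counts on that scaling and the share of all genes below 0 are not given. In the cortex 2 weeks after injury 38 of 116 were below 0 with all arrays and 103 of 116 without sham replicate 3, when 17 were lower and none was higher (3.44% of all probes were lower).

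Against naive rats more of the lists was called, and the genes named are again those with the largest change among those called. In the hippocampus at 6 months 30 of 114 genes tested were higher and 3 lower in sham rats (8.36% and 9.94% of all probes), led by Dnm1 (1.23), the dynamin of vesicle endocytosis, the AMPA receptor regulator Cacng8 (1.04) and Sh3gl2 (0.98), an endophilin. Postsynaptic scaffolds and kinases had 11 of 23 higher and none lower, and the median of all 114 was 0.25 (all named genes -0.03). In the cortex at 24 hr 24 of 118 genes were lower and none was higher in TBI rats, where 9.1% of all probes were lower, led by Dlgap3 (-1.15), a scaffold that binds PSD-95, the active zone gene Erc2 (-1.10) and Rph3a (-1.03), a vesicle-bound partner of Rab3. Between naive tissues 33 of 119 genes were higher and 55 lower in the hippocampus (29.6% and 26.1% of all probes), and C1ql2, a relative of C1ql3, had the largest difference (5.10 ± 0.25, adjusted p = 1.42e-12).

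How the members varied together was described over the 96 arrays of the larger design, after the mean of each tissue and interval had been subtracted. These correlations are descriptions, since the arrays share batches and scaling. Over the 45 pairs of members Pearson's r had a median of 0.478 with all arrays and 0.316 without cortex sham replicate 3 of 2 weeks, where it ran from -0.21 to 0.81. Among 10777 named genes, or 10762 without that array, those most like Syn1 were Atg9a (r = 0.940), Grin1 (0.936) and Bag6 (0.935) with all 96 arrays, and Neurl4 (0.868), Atg9a (0.864) and Grin1 (0.863) over the 95 arrays without that one. Gpr85 (0.543), Ak5 (0.540) and Pter (0.528) were most like C1ql3 over those 95 arrays, Btbd10 (0.752) and Gria3 (0.748) most like Homer1, and C20h6orf136 (0.763) and Pnkd (0.762) most like Snap25.

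Several members have more than 1 probe, and these did not always go the same way. Over the 8 comparisons of TBI with sham on the larger design both probes had the same sign in 6 for Syn1, in 5 each for Syt1 and Camk2a and in 3 for Shank2, whose second, dim probe belongs to another transcript and differed from the first by up to 1.85, a gap of the cortex at 2 weeks that was 0.36 without sham replicate 3. Without that array both probes had the same sign there for all 4 genes. On the smaller design Snap25 has 2 probes above background in all 17 arrays. Between TBI and sham rats both lay below 0 at 24 hr (-0.13 and -0.18). At 3 months they went opposite ways (0.05 and -0.38). Values above are those of the probe with the highest mean signal.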

How the data were processed

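Each array was deposited as its Agilent Feature Extraction output (version 11.5.1.1), 1 colour, and the authors' processed intensity of each spot, with background already subtracted, was taken from it. Spots flagged as non-uniform or as population outliers were left out, and the other spots of a probe were averaged. The averages were log2 transformed, and the array's 75th percentile over probes was subtracted. The study's methods name the median as the scaling, but in all but 1 array the constant behind the deposited value table lies within 1 percentile of the 75th. Probe names came from the RefSeq transcript in the deposited arrays (61.4% of probes named on the larger and 46.3% on the smaller design), and of several probes the brightest on average stood for the gene.

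A probe entered the test when 1 or more of the compared groups had it above background throughout. Hippocampus and cortex were taken as the same rat where the animal numbers in the deposited array names match, which they do for all rats of 2 weeks and 6 months and the naive rats of 1 year. Naive, sham and TBI arrays of a tissue and interval entered 1 model (limma 3.58.1, R 4.3.3), with Benjamini-Hochberg adjustment over all probes tested. The number of arrays limits the precision, and the labels do not say that each array is a separate RNA extraction. The members and gene lists were chosen with earlier results of these data known. Named are the 10 members, the 3 called genes of the other synapse lists with the largest change, and the 3 genes most like a member. Members of marker lists and list genes against naive rats were named after their values were seen. The test was checked on simulated data. Alternatives were the scaling, the background correction, the filter on dim probes, the mean over a gene's probes, the groups in the model, each array left out, slide as a block and the replicate number as a block.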

Additional observations from a re-analysis of the deposited data

Results flagged for a closer look

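In groups of 4 rats, the array farthest from the others was looked for by Dixon's ratio of its gap to the group's range, over 267 groups of a gene, and 22 lay past the 95% limit, where chance flags about 1 in 20 groups. Of the 22, 7 belong to cortex sham replicate 3 at 2 weeks, which read low for Syn1 (2.19), Vamp2 (3.67), Snap25 (3.88), Dlg4 (-1.07), Homer1 (0.44), Shank2 (0.69) and C1ql3 (0.17). The other 15 are spread over groups. In the cortex of naive rats of 24 hr, replicate 1 stood apart for Syn1 (4.85) and Dlg4 (1.20). In cortex sham rats of 1 year, replicate 3 stood apart for Syp (2.29) and Vamp2 (6.46) and replicate 4 for Homer1 (3.02), and Dlg4 did so in sham replicate 4 of 6 months (0.96). Syt1 stood apart in cortex naive replicate 1 of 1 year (1.01) and in the hippocampus in sham replicate 1 (1.46) and TBI replicate 1 (0.91) of 2 weeks and TBI replicate 1 of 3 months (-4.09). In hippocampal sham rats, replicate 3 of 3 months stood apart for Snap25 (4.44) and Dlg4 (-1.77), replicate 4 of 6 months for Snap25 (6.14) and replicate 3 of 1 year for Shank2 (2.95), and in TBI rats replicate 4 of 3 months for Shank2 (-3.90). No cause was tested.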

How the results depend on the processing

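Numbers here are members called in limma, and the cause of each change was not tested. Between TBI and sham rats in the hippocampus at 24 hr, 2 were called, 0 without the filter on dim probes, 1 with probes above background in every array (Syt1 was then not tested), and 0 to 1 with an array left out. In the cortex at 2 weeks, 0 to 2 were called with an array left out. Between sham and naive rats in the hippocampus at 6 months, 5 were called, 3 on the array median, 2 without the filter, 3 with those 2 groups alone in the model and 3 to 5 with an array left out. Between TBI and naive rats of that interval 3 were called, and 0 without the filter. In the cortex at 24 hr, TBI against naive gave 1, but 2 on the array median, 0 after quantile normalization, without the filter or with 2 groups in the model, and 0 to 4 with an array left out. Sham against naive there gave 0, but 4 on the array median and 2 with 2 groups in the model. Sham against naive at 1 year gave 0, but 1 in each tissue with the mean over a gene's probes. TBI against naive gave 0, but 1 in the hippocampus at 2 weeks on the array median or in the deposited values, 1 in the cortex at 2 weeks with 2 groups in the model, and 1 in the cortex at 6 months after quantile normalization or normexp. The hippocampal minus cortical effect at 24 hr gave 0, but 1 on the array median and 0 to 1 with an array left out (1 without hippocampal sham replicate 1). Naive tissues gave 8, and 4 on the array median.

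Syt1 turned sign on the array median in the cortex at 2 weeks (TBI against sham 0.24, against naive 0.011), and Vamp2 did between sham and naive hippocampus at 6 months with the mean over its probes (-0.10). Of 333 alternatives to a count 311 gave the same count or one within 1.5 times. The main count was 0 in most comparisons, and 0 against 0 is among the 311, so this says little on the counts above 0. The array median moved the median of all probes by over 0.1 in 16 of 37 comparisons (-0.86 to 0.76). Same-numbered rats deviated together, with a correlation over 0.1, in every pair in 2 of 28 comparisons (correlations -0.43 to 0.56). The numbers were therefore not taken to pair the rats of different treatments in the main model, though this check cannot show that they do not. With the replicate block 0 members were called between TBI and sham rats in the hippocampus at 24 hr (C1ql3 -1.42, adjusted p = 0.0607), 4 between sham and naive and 3 between TBI and naive hippocampus at 6 months, and 1 between TBI and naive cortex at 24 hr. Naive tissues of the same rats were paired by rat, and 7 members were called with that block. The planned normexp correction on the spot mean was not run, and one on the spot median, chosen after seeing the data, stands in its place. A slide block was run where both groups shared a slide, and for 19 comparisons there was none. The fits of lists and of TBI against naive cortex at 2 weeks without sham replicate 3, and those on differences within each rat, were also chosen after seeing the data.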
